A study of Canis lupus familiaris with 62 samples.

Results

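The genes described here lie at the distal end of dog chromosome 8, where the immunoglobulin heavy chain locus is found. A gene was included when its smallest exon start was 72500000 or more on CanFam3.1, its summed exon length was over 250 bases and its span was under 500 kb. This left 52 of the 30951 genes in the deposited count table, out of 55 genes that start in the region. The rule uses the position and structure of the genes and no measured value, but it was set with earlier results of these data known.

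A heavy chain locus holds many short variable segments and, beside them, a row of constant genes that encode the stems of the antibody classes. A B cell rearranges its segments into a single joined gene, and the plasma cell that descends from it transcribes that gene at a very high level, so that RNA of this locus is widely used as a readout of B lineage cells. Light chains come from separate loci, which in the dog lie on chromosome 17 (kappa) and chromosome 26 (lambda). A meningioma grows from the membranes that cover the brain, whose own cells are not B lineage cells.

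The 62 libraries were made from paraffin-archived tumours of dogs. By their treatment labels 27 dogs had none, 7 had a steroid (6 of them with an anti-epileptic drug as well), 3 had an anti-epileptic alone, 3 had RT, 13 had Sx and 9 had Sx with RT (SxRT), with RT and Sx read as radiotherapy and surgery. The tissue was a surgical biopsy or came from a necropsy, 1 tumour per dog, and the labels give neither which of these it was nor the order of sampling and treatment. Of the dogs 31 were female and 31 male, 7 were intact and 55 neutered, and the 3 RT dogs were all neutered males. The labels also give a breed for each dog, and the many breeds were spread unevenly over the groups. The libraries held 1967061 to 12063982 counts (median 4190135), both reads of a pair being counted. Levels are given in CPM, counts scaled to library size with TMM factors (which even out differences in RNA composition), and levels of different genes are compared only as CPM per kb of exon.

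The 52 genes fell into 2 stretches, a division by strand and position that was made after the values were seen. The proximal stretch has 17 members, 13 on the plus and 4 on the minus strand, and ends at 72816079 with the last of a run of plus-strand genes. The distal stretch has 35 members, and 34 of them lie on the minus strand. In the RefSeq annotation of another dog assembly (UU_Cfam_GSD_1.0), the named genes NUDT14, BRF1, BTBD6, PACS2, MTA1, CRIP2, CRIP1, TEDC1 and TMEM121 precede the locus, and 7 constant and 66 variable segments follow with 0 named protein-coding genes among or after them. The count table pairs no identifier with a name and 0 of its identifiers matched that annotation, so no member is given a gene name here, and markers of B lineage, plasma, T, myeloid, erythroid, endothelial, brain and meningeal cells could not be looked up. By structure the proximal stretch resembles the flank of the locus and the distal stretch the locus itself, so the 52 members are not all immunoglobulin genes.

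**Figure D1:**
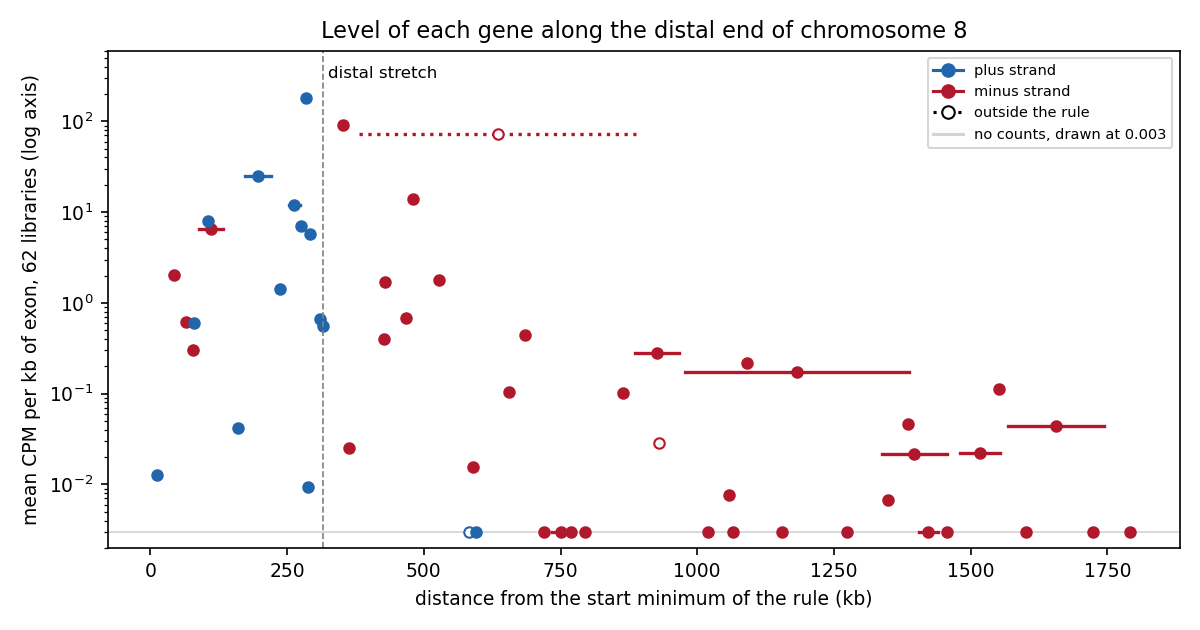
Each gene is drawn from its start to its end at its distance in kb from the start minimum, with a dot at its middle, at its mean CPM per kb of exon over 62 libraries on a log axis. Blue is the plus and red the minus strand, open dots are genes outside the rule, and genes without counts are drawn at 0.003. The 17 genes left of the dashed line lie on both strands, and to its right levels fall from 91.7 and 72.4 CPM per kb near the line to 0 for many short genes.

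Of the 52 members, 14 had no count in any library and 21 passed the filter on low counts. All 14 members without a count were distal. Of the 17 proximal members, 14 passed the filter and 8 had counts in at least 60 libraries. Of the 35 distal members, 7 passed, 1 had counts in at least 60 libraries, and 13 had counts in 1 to 4 libraries only. No exon base of a member was shared with an exon of another gene in the table, although the spans of 36 members overlapped that of another gene.

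The rule leaves out the most heavily counted gene of the region. ENSCAFG00000030258, on the minus strand from 72881377 to 73388517, spans 507141 bases and so lies just outside the limit on span. It has 17 exons of 5520 bases in all and took 123222 counts, against 45204 for all 35 distal members together, and 14 members lie within its span. The other excluded genes, ENSCAFG00000046928 (162 bases of exon) and ENSCAFG00000041509 (219 bases), had 0 and 2 counts. On the inner side of the start minimum, the last gene outside was ENSCAFG00000029644 at 72479905 (145 counts in 23 libraries), and the first member was ENSCAFG00000041600 at 72511343 (8 counts in 2 libraries).

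In the distal stretch nearly all counts fell on 2 genes. ENSCAFG00000032358, from 72850670 to 72852219 with 2 exons of 1349 bases, took 82.0% of the 45204 distal counts, and ENSCAFG00000041946, from 72977146 to 72981735 with 5 exons of 1531 bases, took most of the rest, the pair making up 95.9%. Their mean levels were 91.7 and 13.9 CPM per kb, and that of the long gene ENSCAFG00000030258 was 72.4 CPM per kb. ENSCAFG00000032358 had counts in 62 and ENSCAFG00000041946 in 58 of 62 libraries. The other 5 distal members that passed the filter averaged between 0.173 and 1.79 CPM per kb: ENSCAFG00000044395, ENSCAFG00000044761, ENSCAFG00000049475, ENSCAFG00000046771 and ENSCAFG00000028509.

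Beyond ENSCAFG00000041946, towards the end of the chromosome, lie 29 members with 1292 counts in all libraries together, and 14 of these genes had none. The short ones among them, 19 genes with up to 500 bases of exon, had 103 counts in total and 11 had none. Genes with over 250 and up to 450 bases of exon, at most 3 exons and a span under 5 kb were called V-sized, after the usual form of a variable segment. There were 11 V-sized genes in the distal stretch, with 207 counts, and 6 of them had none. One of these, ENSCAFG00000045676 (73184762 to 73185070, 1 exon of 309 bases), had 32 of its 37 counts in RT replicate 1; it is named because of that value. Reads that match several genes equally well are uncertain in such a family. Only primary alignments were counted, and how the aligner placed such reads is not given in the sources used here.

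The proximal stretch carried 83754 counts. Its highest member per length was ENSCAFG00000018440 (72784788 to 72786108, 5 exons of 412 bases), with a mean of 183 CPM per kb, the highest of all 52. ENSCAFG00000018417 followed with 24.9, then ENSCAFG00000018428 with 12.03, ENSCAFG00000018413 with 7.92, ENSCAFG00000018438 with 6.97 and ENSCAFG00000018408 with 6.44 CPM per kb. The member with the most exon sequence, ENSCAFG00000018401 (4638 bases, 24 exons), stood at 2.04 CPM per kb. Of the 8 members with the highest level per length, 6 were proximal.

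The 2 stretches varied between tumours to very different degrees. Summed over its 17 members, the proximal stretch lay between 166 and 602 CPM in the 62 libraries, a 3.61-fold range. Summed over its 35 members, the distal stretch lay between 5.82 and 3982 CPM with a median of 32.8, a 685-fold range. Its share of the summed level of all members ran from 0.967% to 94.7% of a library's value, with a median of 9.78%. The distal sum was over 10 CPM in 51 libraries and over 100 CPM in 16. In a bulk sample, fewer cells of a type and less RNA per cell cannot be told apart.

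A single tumour held the highest distal level by far. Untreated replicate 12, from a neutered female, stood at 3982 CPM, 3.76 times the next library and 121 times the median, and carried 42.5% of the distal CPM summed over all libraries. RT replicate 1 followed at 1058 CPM and untreated replicate 6 at 806 CPM. These 3 libraries together held 62.4%. The long gene reached 15868.5 CPM in untreated replicate 12, which was 0.986% of that library's counts, but 259 CPM in RT replicate 1 and 398 CPM in untreated replicate 6. Untreated replicate 12 also had 46.5% mitochondrial counts (median of all libraries 12.2%) and a TMM factor of 0.621, and the part these play in its level was not tested. The proximal sum was not raised with it, at 223 CPM against a median of 263. At the low end, SxRT replicates 8 and 9, untreated replicate 20 and steroid replicate 1 had 5.82, 5.87, 6.17 and 6.62 CPM, from 36, 54, 26 and 22 counts.

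**Figure D2:**
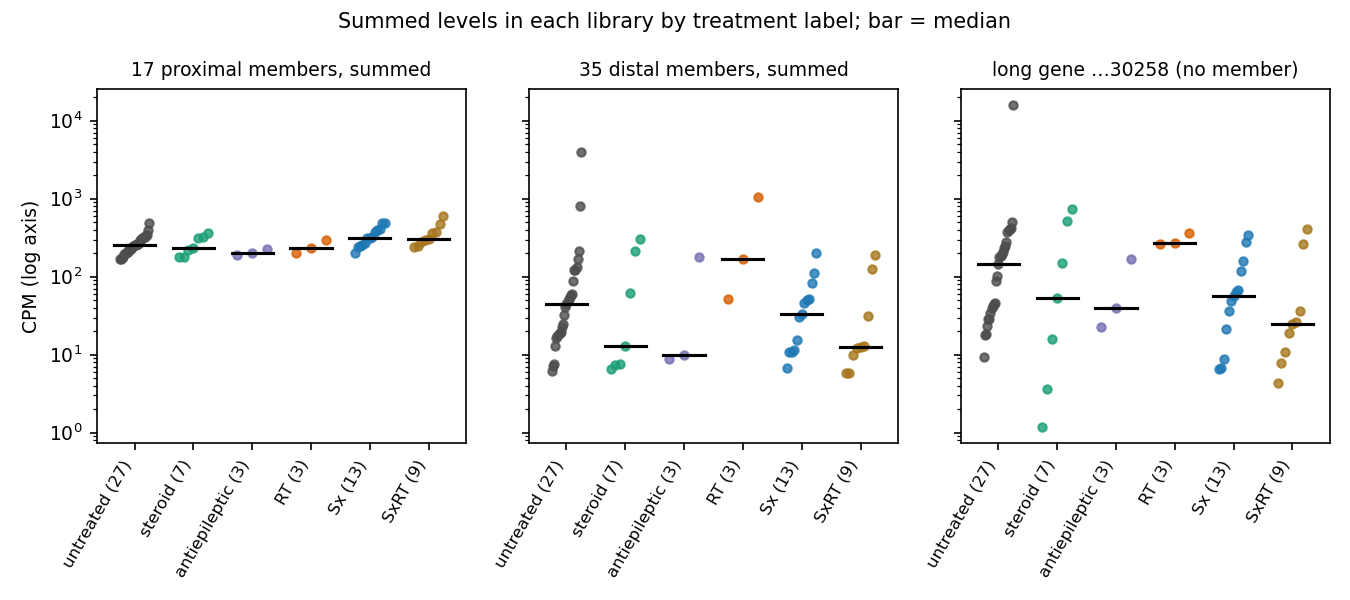
Points are libraries, grouped by treatment label with the number of dogs in brackets, and bars are medians; the vertical axis is CPM on a log scale. The proximal sum stays between 166 and 602 CPM in every group, while the distal sum and the long gene spread over orders of magnitude within most groups.

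By treatment label the distal sums overlapped throughout. In untreated tumours the lowest, median and highest values were 6.17, 44.6 and 3982 CPM, and in Sx tumours 6.75, 33.5 and 202 CPM. In SxRT tumours they were 5.82, 12.6 and 189 CPM, and in steroid tumours 6.62, 13.1 and 308 CPM. The medians of the SxRT and steroid groups were thus the lower ones among the larger groups, but each of these groups also held libraries well above the untreated median. The 3 anti-epileptic tumours had 8.80, 9.92 and 180 CPM, and the 3 RT tumours 51.4, 167 and 1058 CPM. All 3 RT tumours lay above the untreated median, and all lay within the untreated range. Over all 52 members the group medians were much closer, from 235 CPM (anti-epileptic) to 373 CPM (Sx), since the proximal members made up most of that sum.

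The distal genes did not keep a fixed ratio to each other. In the 50 libraries with at least 100 counts for the pair, the level per length of ENSCAFG00000032358 over that of the long gene ENSCAFG00000030258 had a median of 1.25 and lay between 0.5 and 2 in 36 of them. It ran from 0.112 in untreated replicate 20 and 0.133 in untreated replicate 11 to 14.3 in RT replicate 1 and 22.2 in Sx replicate 12. The lowest and highest of these rest on 4 counts of ENSCAFG00000032358 in untreated replicate 20 and 32 counts of the long gene in Sx replicate 12. RT replicate 1 and untreated replicate 11 rest on more, with 3854 against 1106 counts and 52 against 1602 counts. Untreated replicate 12, with the highest level of both genes, had a ratio of 0.988.

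ENSCAFG00000041946 varied likewise against ENSCAFG00000032358. Of the counts of these 2 members, the share of ENSCAFG00000041946 had a median of 28.2% in the 32 libraries with at least 100 such counts and ran from 1.57% to 84.8%. Untreated replicate 8 was at the upper end with 380 counts of ENSCAFG00000041946 and 68 of ENSCAFG00000032358, and steroid replicate 6 at the lower end with 12 and 752. In the highest library, untreated replicate 12, ENSCAFG00000041946 reached 64.1 CPM, below the 152 CPM of steroid replicate 4 and the 148 CPM of RT replicate 1. Thus the tumour with the highest level of one distal gene was not the one with the highest level of the other.

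**Figure D3:**
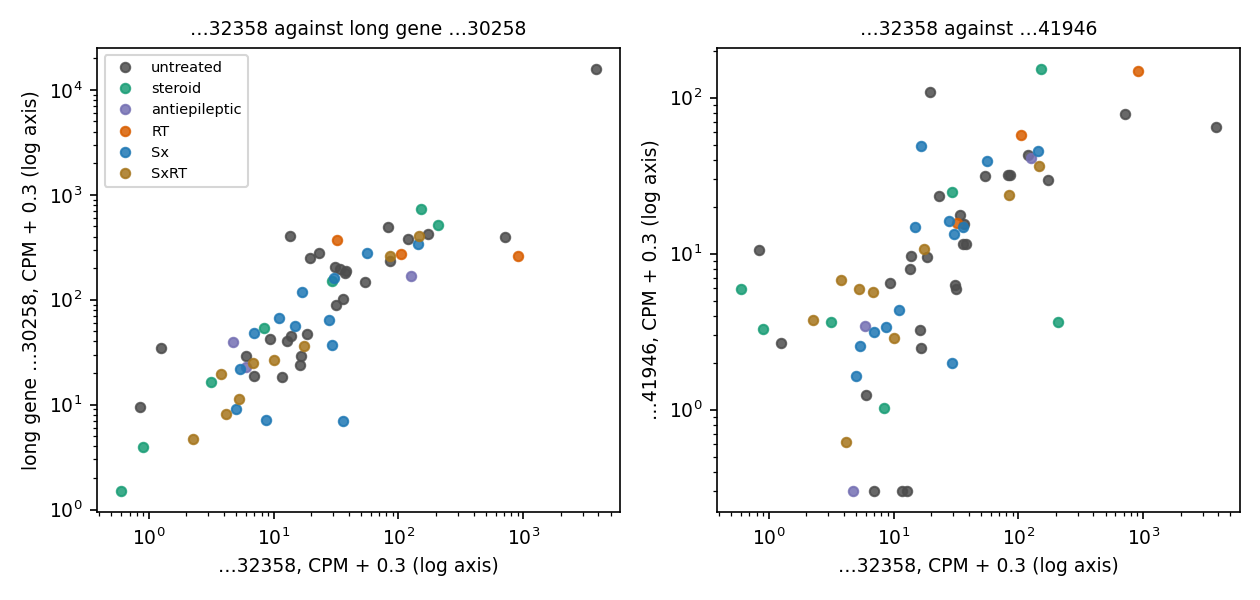
Each point is a library, coloured by treatment label; the axes are CPM with 0.3 added, on log scales. ENSCAFG00000032358 is on the horizontal axis, the long gene ENSCAFG00000030258 on the left vertical axis and ENSCAFG00000041946 on the right one. Both rise with ENSCAFG00000032358, with single libraries far from the trend, such as RT replicate 1 at 902 CPM of ENSCAFG00000032358 and 259 CPM of the long gene.

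Over the 62 libraries, log2 levels of ENSCAFG00000032358 and the long gene correlated with r 0.86 (rho 0.84, r 0.84 without the 2 libraries farthest from the median), and those of ENSCAFG00000032358 and ENSCAFG00000041946 with r 0.70 (rho 0.75, r 0.67 without the 2 farthest). Correlations here are descriptions, since all genes of a library share its depth and RNA quality. Among the 7 distal members that passed the filter, the 21 pairs had rho between -0.06 and 0.75 with a median of 0.23. Distal and proximal members were not alike, with a median rho of -0.05 over 98 pairs, 69 of which were negative. The distal sum and the proximal sum correlated with r -0.29 (rho -0.28). With the depth of the library (log2 total) the distal sum had r 0.15, with the mitochondrial share r 0.18 and with the share of even counts r 0.02; within untreated tumours these were 0.46, 0.38 and -0.28.

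Runs of at least 8 V-sized genes were then sought on all chromosomes by structure alone. A run of 13 on chromosome 17 (37474289 to 37840905) had 16826 counts, and a run of 16 on chromosome 26 (25074525 to 26352058) had 763. The summed level of the 52 members correlated with these runs with r 0.53 (rho 0.38) and r 0.56 (rho 0.36). For the distal members alone the values were r 0.87 (rho 0.88) and r 0.70 (rho 0.64). The distal values were r 0.92 and 0.90 within the 27 untreated and r 0.81 and 0.68 within the 22 surgical tumours. The chromosome 26 run lay near the floor, with a median of 0.28 CPM and a highest level of 73.4 CPM, so its values rest on few counts in most libraries. Most of the level of the chromosome 17 run came from 1 of its genes, ENSCAFG00000031753. That gene had a median of 9.50 and a highest level of 1929 CPM, against 9.56 and 1950 CPM for the whole run. With the run of 13 near the start of chromosome 8 (2273563 to 2869857, 599 counts), the distal sum had r -0.07. The remaining runs, on chromosomes 9, 17 and 35, gave r between 0.03 and 0.18, and the 9 V-sized members at the end of chromosome 8 had 16 counts between them.

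The tumours with the highest distal sums did not all have high values of these runs. Untreated replicate 12 had 1950 CPM in the chromosome 17 run and 73.4 CPM in the chromosome 26 run, the highest of all libraries in both. Untreated replicate 6 had 140 and 12.3 CPM. RT replicate 1, with the next to highest distal sum, had 28.1 CPM in the chromosome 17 run and 0 in the chromosome 26 run, where many other libraries also had 0.

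**Figure D4:**
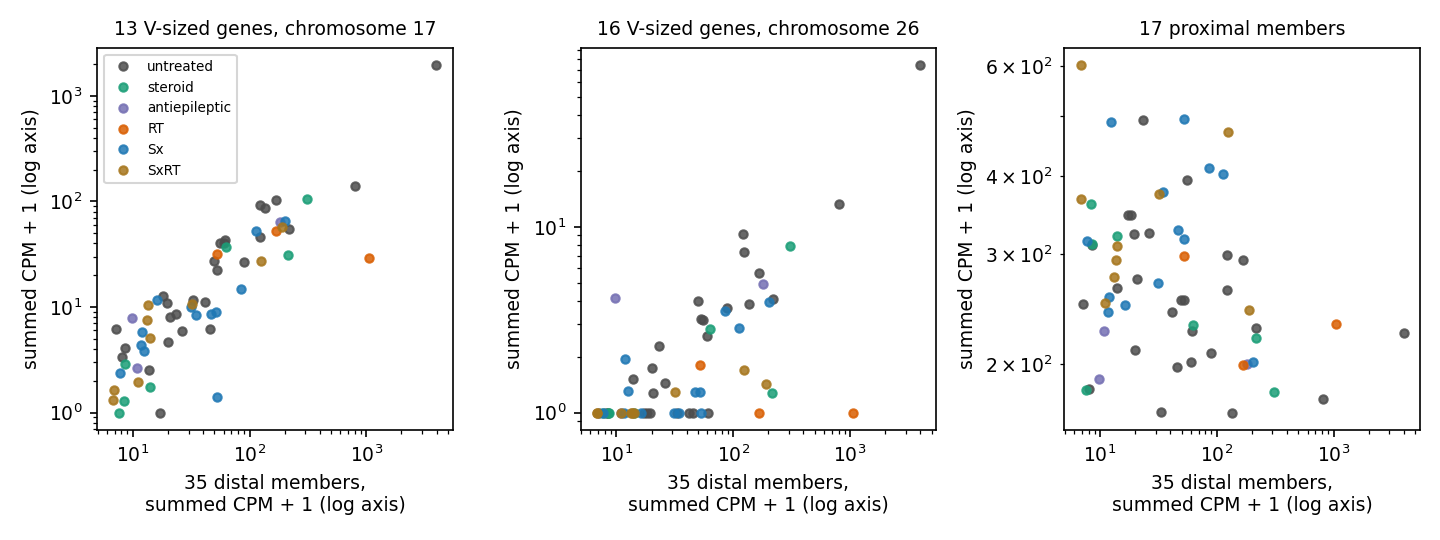
Each point is a library, coloured by treatment label; the axes are summed CPM with 1 added, on log scales. The distal sum is set against the V-sized run of chromosome 17 (r 0.87), that of chromosome 26 (r 0.70) and the 17 proximal members (r -0.29).

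Among 16280 genes elsewhere whose mean log2 CPM was 0 or more, the 2 most like the summed level of all 52 members were ENSCAFG00000049976 (r 0.70, rho 0.51) and ENSCAFG00000047066 (r 0.67, rho 0.43), both on chromosome 26 at 26551604 to 26615329 and 27620229 to 27628557. Without the 2 libraries farthest from the median these fell to 0.48 and 0.41, so the likeness rests in part on those libraries. Against the distal members alone, a comparison added after the values were seen, the closest genes were ENSCAFG00000031806 on chromosome 26 (27615046 to 27616193, r 0.87, rho 0.84), ENSCAFG00000031753 on chromosome 17 (37702886 to 37703458, r 0.86, rho 0.88), ENSCAFG00000049976 (r 0.81, rho 0.74) and ENSCAFG00000028568 on chromosome 13 (59962994 to 59970751, r 0.79, rho 0.67). ENSCAFG00000031753 belongs to the run on chromosome 17 and makes up most of its level, so its r and that of the run are not separate results. For ENSCAFG00000031806 and ENSCAFG00000031753 r stayed at 0.82 and 0.86 without the 2 farthest libraries.

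Surgical tumours (Sx and SxRT, 22 dogs) were compared with untreated ones (27 dogs) with edgeR's quasi-likelihood test, fitted over 18370 genes and 62 libraries with sex and neuter status. Of the 21 members tested 4 were called at an adjusted p under 0.05, where 16.8% of all genes tested were called. The 3 called higher (6.37% of all genes) were proximal and the 1 called lower (10.4% of all genes) was distal. Thus 3 of 14 proximal members rose and 0 fell, and 1 of 7 distal members fell and 0 rose. The median log2 fold change was 0.50 over the 14 proximal and -1.001 over the 7 distal members tested, against -0.02 over all genes. A share of 4 in 21 is close to the share of all genes, so the count does not set the members apart.

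ENSCAFG00000018438 (72773451 to 72778949, 6 exons) had a lowest, median and highest level of 0, 12.01 and 30.1 CPM in untreated and 4.53, 24.3 and 50.4 CPM in surgical tumours. It lay above the untreated median in 21 of 22 surgical tumours, with overlapping ranges, and rose by a log2 fold change of 0.88 (SE 0.254; edgeR, adjusted p 0.0118). ENSCAFG00000018428 (72753178 to 72772762, 22 exons) had 17.1, 30.9 and 55.8 CPM in untreated and 27.5, 40.8 and 72.5 CPM in surgical tumours, and rose by 0.51 (SE 0.156, edgeR adjusted p 0.0179). ENSCAFG00000018408 (72588693 to 72632263, minus strand, 19 exons) had 6.00, 17.01 and 35.6 against 13.6, 25.98 and 37.0 CPM and also rose by 0.51 (SE 0.156, edgeR adjusted p 0.0179). These lay above the untreated median in 18 and 20 of 22 surgical tumours. For each of these genes most surgical tumours lay above the untreated median, while the ranges of the groups overlapped. The highest proximal member per length, ENSCAFG00000018440, had medians of 56.6 and 88.5 CPM and did not pass (log2 fold change 0.73, SE 0.290, edgeR adjusted p 0.0718). ENSCAFG00000018417 had medians of 89.2 and 95.4 CPM and a fitted log2 fold change of -0.11 (SE 0.152).

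The called distal member, ENSCAFG00000044395 (72927338 to 72928918, 2 exons of 1396 bases), was lowly expressed. It had counts in 13 of 27 untreated tumours, up to 6.16 CPM, and in 6 of 22 surgical tumours, up to 1.24 CPM, with 148 counts in all libraries together. Its log2 fold change was -3.09 (SE 0.801; edgeR, adjusted p 0.00522), and limma voom with quality weights, at -1.12, did not call it (limma adjusted p 0.0647). Its fitted dispersion of 4.01 is high, just above 4. In simulated counts 14 of 16 calls among genes with a dispersion above 4 were false, against 11 of 151 among the others. The simulation changed 200 of 18370 genes, a smaller share than the 16.8% called here. Its false shares therefore do not carry over to this gene, and whether this call is false was not tested. The groups overlapped, and the median was 0 in both.

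The abundant distal genes had lower medians too in the pooled surgical tumours, with wide spread. ENSCAFG00000032358 had a lowest, median and highest level of 0.542, 22.7 and 3833 CPM in untreated and 1.96, 12.6 and 146 CPM in surgical tumours, of which 8 of 22 lay above the untreated median. Its log2 fold change was -1.77 (SE 0.767, edgeR adjusted p 0.103) and did not pass, though DESeq2 called it (-1.79, adjusted p 0.0246). Without untreated replicate 12 edgeR gave -0.88 (adjusted p 0.337), and within sample numbers 17 to 22 it gave 0.00178 (SE 0.629). The long gene had medians of 147 and 36.4 CPM, 5 of 22 surgical values lay above the former, and it fell by 2.39 (SE 0.764, edgeR adjusted p 0.0236). Without untreated replicate 12 its value was -1.05 and the call was lost (edgeR adjusted p 0.173). ENSCAFG00000041946 had medians of 10.3 and 6.10 CPM and a log2 fold change of -0.67 (SE 0.571, edgeR adjusted p 0.459).

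Library measures moved with surgery as well. Counts up to 20 are mostly even where the reads of a pair are counted together, and the even ones made up a median of 91.4% in untreated and 86.6% of them in surgical libraries. The median mitochondrial share was 12.8% and 9.57%. With the even share as a covariate the 3 proximal calls were lost, at log2 fold changes of 0.77, 0.51 and 0.40 (edgeR adjusted p 0.133, 0.120 and 0.231), and 4.00% of all genes were called. ENSCAFG00000032358 joined ENSCAFG00000044395 among the called (-2.38 and -2.85, edgeR adjusted p 0.0473 and 0.0400). All but 1 surgical dog, Sx replicate 1, have sample names that begin with S and no other dog does, a letter the labels do not explain, so the letter and surgery cannot be told apart. Without Sx replicate 1, 7 members were called and 19.3% of all genes, the additional ones being ENSCAFG00000018413 (0.53), ENSCAFG00000032358 (-2.30) and ENSCAFG00000028509 (-3.13). Within sample numbers 11 to 16 and 17 to 22 taken separately edgeR called 0 members, with 2 and 3 at an unadjusted p under 0.05, and called 0 of 18153 and 71 of 19503 genes in all. ENSCAFG00000018408 had log2 fold changes of 0.49 and 0.55 there and ENSCAFG00000018428 of 0.38 and 0.42. With the sample number as a term over all libraries, an alternative added after the data were seen, 1 member was called, ENSCAFG00000018408 (0.69, edgeR adjusted p 0.0210), and 7.72% of all genes. ENSCAFG00000018438, ENSCAFG00000018428 and ENSCAFG00000044395 then had 0.77, 0.45 and -2.55 (edgeR adjusted p 0.112, 0.0955 and 0.0891), and the long gene -1.43 (edgeR adjusted p 0.287).

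**Figure D5:**
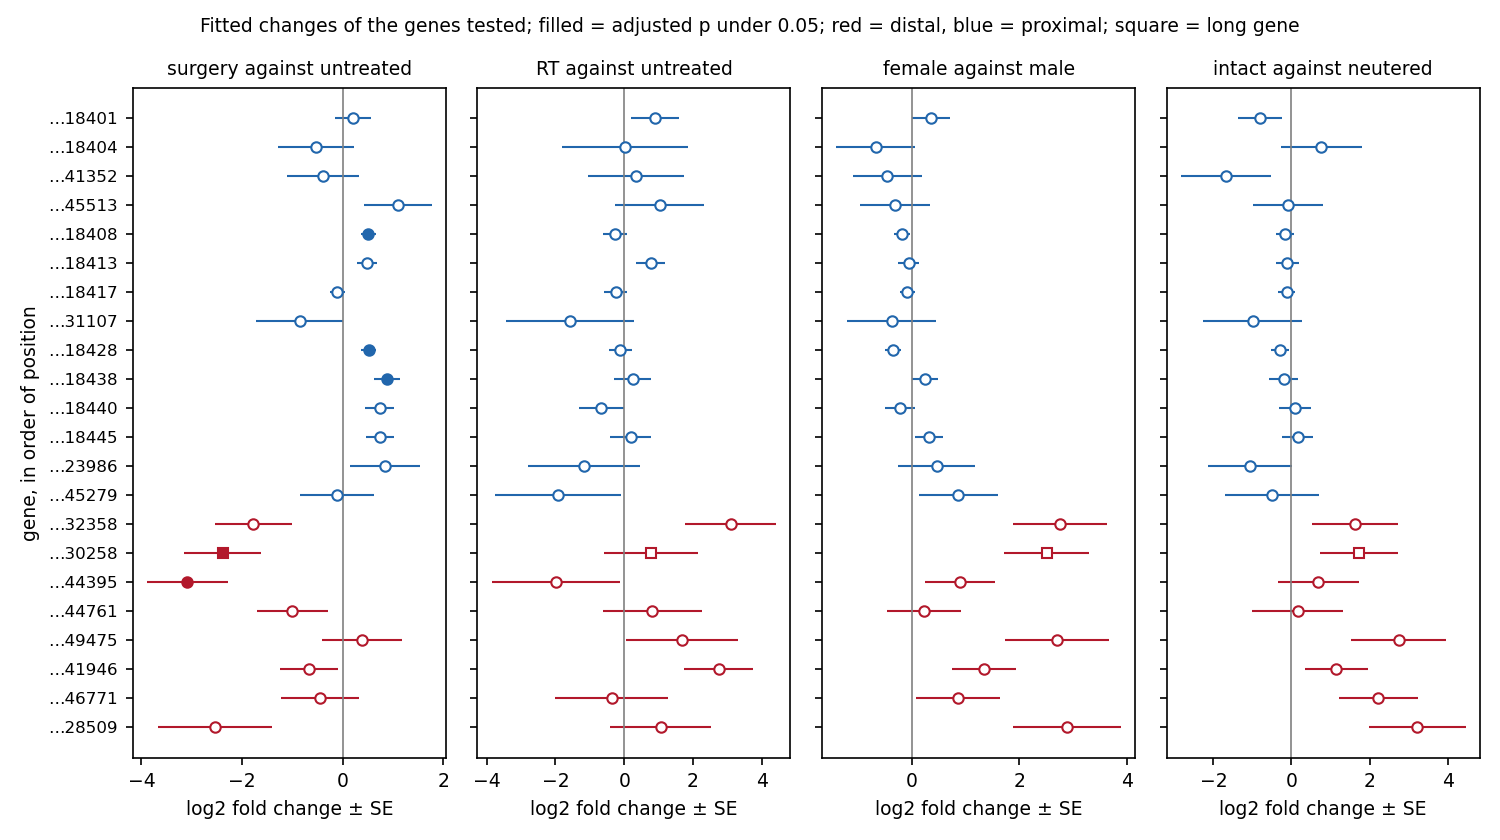
Fitted log2 fold changes with their standard errors for the 21 members tested and the long gene (square), in order of position, for 4 comparisons. Filled symbols have an edgeR adjusted p under 0.05; these are 3 proximal members, 1 distal member and the long gene, all in the surgery comparison.

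The remaining treatment comparisons called 0 members with edgeR. For RT against untreated, where 0.435% of all genes were called, 2 of 21 members had an unadjusted p under 0.05 (7.84% of all genes), and DESeq2 and limma voom also called 0. Those were ENSCAFG00000032358, at 902, 104 and 32.03 CPM in the 3 RT tumours, and ENSCAFG00000041946, at 148, 56.8 and 15.3 CPM. All 3 RT values of each gene lay above its untreated median (22.7 and 10.3 CPM). Those of ENSCAFG00000032358 lay within the untreated range, and 148 CPM of ENSCAFG00000041946 lay above the highest untreated value of 108 CPM. The log2 fold changes were 3.103 (SE 1.32, edgeR adjusted p 0.544) and 2.75 (SE 1.00, edgeR adjusted p 0.396). Without RT replicate 1 they were 0.78 and 1.74. The long gene, at 259, 274 and 367 CPM, had 0.78 (SE 1.37).

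For steroid against untreated (0.256% of all genes called) edgeR, DESeq2 and limma voom called 0 members, with 2, 3 and 3 of 21 at an unadjusted p under 0.05, which 11.0% of all genes had with edgeR. ENSCAFG00000032358 had 0.298, 8.02 and 208 CPM as its lowest, median and highest steroid values and a log2 fold change of -2.07 (SE 1.14, edgeR adjusted p 0.509). For anti-epileptic drugs alone (0.00544% of all genes) the tools called 0 members, with 2, 1 and 1 at an unadjusted p under 0.05 (4.61% of all genes with edgeR), and ENSCAFG00000032358 stood at 4.41, 5.66 and 126 CPM. For SxRT against Sx (0.0109% of all genes) all 3 tools called 0 and had 0 at an unadjusted p under 0.05. All 7 distal members had negative fitted values there, from -2.07 to -0.38, and the smallest edgeR adjusted p was 1. The median over all genes was -0.04, and the 7 share the same libraries. These comparisons share the untreated or the Sx dogs with the one on surgery.

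Between the sexes edgeR called 0 members, with 5 of 21 at an unadjusted p under 0.05, where 0.049% of all genes were called and 8.25% had such an unadjusted p. All 7 distal members tested had positive fitted values (female against male), with a median of 1.35 on the log2 scale, against -0.13 for the proximal ones and 0.00 for all genes. They share the same libraries, so their common sign is not 7 separate results. Untreated replicate 12 held the highest level of ENSCAFG00000032358, ENSCAFG00000044395 and ENSCAFG00000028509, and the others had theirs in other libraries. ENSCAFG00000032358 had a lowest, median and highest level of 0.602, 19.4 and 3833 CPM in 31 females and 0.298, 16.4 and 902 CPM in 31 males. The ranges overlapped almost wholly, and 18 of 31 females lay above the male median. Its log2 fold change of 2.75 (SE 0.879) did not pass with edgeR (adjusted p 0.320), passed with DESeq2 (2.79, adjusted p 0.00437), the 1 call by that tool, and was 0.88 with limma voom, which called 0 members (3 at an unadjusted p under 0.05). Without untreated replicate 12, a female, edgeR gave 1.40 (adjusted p 0.687).

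Intact dogs, 7 against 55 neutered, gave 0 called members with edgeR (0.0435% of all genes), DESeq2 and limma voom, with 3, 1 and 4 at an unadjusted p under 0.05 (8.13% of all genes with edgeR). The 7 distal members all had positive fitted values, from 0.16 to 3.22. Their median was 1.63, against -0.19 for the proximal ones and -0.04 for all genes. Here too they share the same libraries. All intact dogs but Sx replicate 9 were male. ENSCAFG00000032358 had 3.50, 36.7 and 173 CPM in intact and 0.298, 16.4 and 3833 CPM in neutered dogs (log2 fold change 1.63, SE 1.09, edgeR adjusted p 0.760). The intact values lay wholly within the neutered range. The largest of the 7, ENSCAFG00000028509 (73477691 to 73886755, 10 exons) at 3.22 (SE 1.23, edgeR adjusted p 0.481), had counts in 3 of 7 intact and 13 of 55 neutered dogs.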

How the data were processed

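Total RNA of 62 paraffin-archived canine meningiomas was sequenced. Per the file headers, the authors deposited raw counts per gene: featureCounts 2.0.4 assigned primary alignments to Ensembl release 100 exons (CanFam3.1) without using strand. Both reads of a pair were counted, so a count of 2 mostly stands for 1 fragment. Overlapping genes on opposite strands may share each other's reads, and reads over exons of several genes were left unassigned. The same holds on either strand for a gene that lies between the exons of another, such as the 14 members within the span of ENSCAFG00000030258. Unspliced reads of that gene over their exons would count to those members, ENSCAFG00000041946 and ENSCAFG00000044395 among them. How much of their level this makes up was not tested. The submitters' processing notes name STAR, DESeq2 and canFam3, without versions.

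Members and lists were chosen with earlier results of these data known. Groups came from the treatment label. Replicates were numbered in accession order, and p-values measure the spread between these tumours. Genes were filtered with filterByExpr by group (18370 left), scaled by TMM and fitted with edgeR 4.0.16 in R 4.3.3 over 6 treatment groups, sex and neuter status (common dispersion 0.627), with Benjamini-Hochberg adjustment over all genes tested. The test was tested on simulated data for surgery against untreated: with 200 of 18370 genes changed 4-fold it called 167 genes, 142 of them rightly, and 15.0% of its calls were false, above the nominal 5%, mostly in genes with a dispersion above 4. Alternatives were other normalizations, filters, tools (DESeq2 1.42.0, limma 3.58.1), covariates and samples; leaving out untreated replicate 12, the sample number as a term and the distal subset were added after seeing the data. Named were the 8 members with the highest CPM per kb, up to 3 called per direction and comparison, the genes at the start minimum, the longest member and the 2 most similar genes elsewhere; other genes named were chosen after their values were seen. Correlations use log2(summed CPM + 1), and for single genes elsewhere log2(CPM + 0.5). Python 3.11.15 with numpy 2.4.6, scipy 1.17.1 and pandas 2.3.3 was used for the rest.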

Additional observations from a re-analysis of the deposited data

Results flagged for a closer look

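Each named member was looked at within each treatment group of 4 to 10 libraries, 26 groups in all, for a single library far from the others, which chance gives in about 1 group in 20. There were 2 such libraries, both in the SxRT group. ENSCAFG00000018438, a proximal member that was higher in surgical tumours, had a log2 CPM of 3.72 in SxRT replicate 1, below the nearest library at 4.53 and the group median of 4.77. ENSCAFG00000044395, the distal member that was lower in surgical tumours, had a log2 CPM (with 0.5 CPM added) of -0.33 in SxRT replicate 5 and no counts in the other SxRT libraries. That value rests on 2 counts. With no counts in the others, any count would have been flagged, so the rate of 1 in 20 does not apply to this gene.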

How the results depend on the processing

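In surgery against untreated the 4 called members became 0 within sample numbers 11 to 16, 0 within 17 to 22, 2 with the share of even counts as a covariate and 1 with the sample number as a term, while the 3080 genes called in all became 0, 71, 734 and 1418. DESeq2 called 6 members (4 higher, 2 lower), limma voom 6 (all higher) and edgeR without sex and neuter terms 6 (4 higher, 2 lower). Of all genes these called 19.2%, 16.3% and 18.1%. Without those terms ENSCAFG00000032358 was called at -2.73 (edgeR adjusted p 0.0108). Leaving out each Sx or SxRT library in turn gave 4 to 7; of the untreated libraries only replicate 12 was left out. The RT comparison called 1 member without the filter on low counts (ENSCAFG00000045676, 6.42, edgeR adjusted p 0.00586) and the comparison of the sexes 1 with DESeq2, against 0 each. ENSCAFG00000032358 went from -1.77 for surgery to 0.00178 within numbers 17 to 22, and the cause was not tested. The group median of the summed level depends on the genes summed: with V-sized members only it was 0.729 (steroid), 0.779 (anti-epileptic), 0.948 (Sx) and 0.323 CPM (SxRT), and with distal members only 13.1, 9.92, 33.5 and 12.6 CPM. The 12 V-sized members include a proximal one, ENSCAFG00000031107, with 164 counts against 207 for the 11 distal ones. The correlation of the sum with the chromosome 17 run from 37474289 was 0.070 with V-sized members only, 0.87 with distal members only, 0.72 within untreated and 0.16 within surgical libraries. For the chromosome 26 run it was -0.023 with V-sized members only, 0.82 within untreated and 0.36 within surgical libraries, and for the chromosome 17 run from 61487140 it was 0.33 within untreated libraries. No paired analysis was possible because the labels give no replicate numbers and tie no dogs across groups; breed was not used as a term. Among alternatives for single genes, 211 kept direction and side of the threshold, 19 lost the call, 7 gained it and 1 changed sign. Most of these alternatives left out a single library and so share nearly all their data. For genes not called in the main fit, to keep the side means to remain uncalled. Members with few counts limit what can be seen: 31 of 52 were not tested.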

Other observations

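Of the 5 genes elsewhere whose levels were closest to the distal sum, 3 were also lower in surgical than in untreated tumours: ENSCAFG00000031753 (chromosome 17, log2 fold change -2.23, SE 0.74, edgeR adjusted p 0.0303), ENSCAFG00000031806 (chromosome 26, -2.17, SE 0.73, edgeR adjusted p 0.0314) and ENSCAFG00000028568 (chromosome 13, -1.76, SE 0.47, edgeR adjusted p 0.00629). Of all genes 10.4% were called lower. Without untreated replicate 12 the values were -1.23, -1.08 and -0.86 (edgeR adjusted p 0.150, 0.196 and 0.0254), so only that of ENSCAFG00000028568 was still called. They were chosen for their likeness to the distal sum after their values were seen, and all 3 had their highest level in untreated replicate 12.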
